A study of Mus musculus with 12 samples.

Results

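Long RNA of the hippocampus was compared between APP/PS1 transgenic mice and their WT littermates in 6 total RNA libraries, 3 per genotype, of the 12 libraries of the series. The other 6 are small RNA libraries and were not used here. All mice were males aged 4 months, and each library is taken to be 1 animal, as the design names 3 mice of each genotype. The APP/PS1 mice carry amyloid precursor protein with the Swedish mutation (APPswe) and the mutated second transgene of this double transgenic model, while the WT littermates carry neither. RNA was extracted with TRIzol, made into stranded total RNA libraries and sequenced on an Illumina HiSeq instrument. The WT replicates are numbered 1, 2 and 4 and the APP/PS1 replicates 1, 2 and 3, and values for 3 libraries of a genotype are always listed in that order. All 24736 gene symbols of the deposited table were considered.

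The APP/PS1 mouse is a model of the amyloid side of Alzheimer's disease. Amyloid precursor protein is cut by beta-secretase and then by gamma-secretase to release amyloid beta peptides, and the transgenes of this model raise the yield of the long, aggregating form. In the widely used line of this name both transgenes are driven by the promoter of the mouse prion protein gene, which is active in neurons and glia of many brain regions. The labels do not name the promoter. Amyloid deposits build up with age, and neither peptide nor deposits were measured in these libraries. The hippocampus holds the CA1, CA2 and CA3 pyramidal cells, the granule cells of the dentate gyrus, interneurons and glia, and it lies against the choroid plexus of the lateral ventricle, the white matter, the neocortex and the thalamus, so that a dissection can carry cells of these neighbours.

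Each library held 120958765 to 146904552 estimated counts, and expression is given as CPM, the count per 1000000 of the normalised library size. APP/PS1 replicate 3 stood apart: its median correlation with the other libraries on the log2 CPM scale was 0.965, against 0.981 to 0.983 for the rest. Summed over 30 cerebellar marker genes it held 9900 CPM, where the other 5 libraries held 1430 to 1572 CPM. Fat2, a cadherin of cerebellar granule cells, stood at 2.67, 2.38 and 1327 CPM in APP/PS1 and 1.84, 3.39 and 2.77 CPM in WT. Car8, a Purkinje cell gene, stood at 3.8, 4.93 and 733 CPM in APP/PS1 and 4.54, 5.83 and 6.88 CPM in WT. Gabra6 was listed at 0 in APP/PS1 replicate 2 and at 283 CPM in replicate 3. Every comparison is therefore given with 6 libraries and again with 5, without APP/PS1 replicate 3. The biological coefficient of variation, the spread between libraries of a genotype beyond counting error, was 26.5% with 6 libraries and 19.7% with 5.

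**Figure D1:**
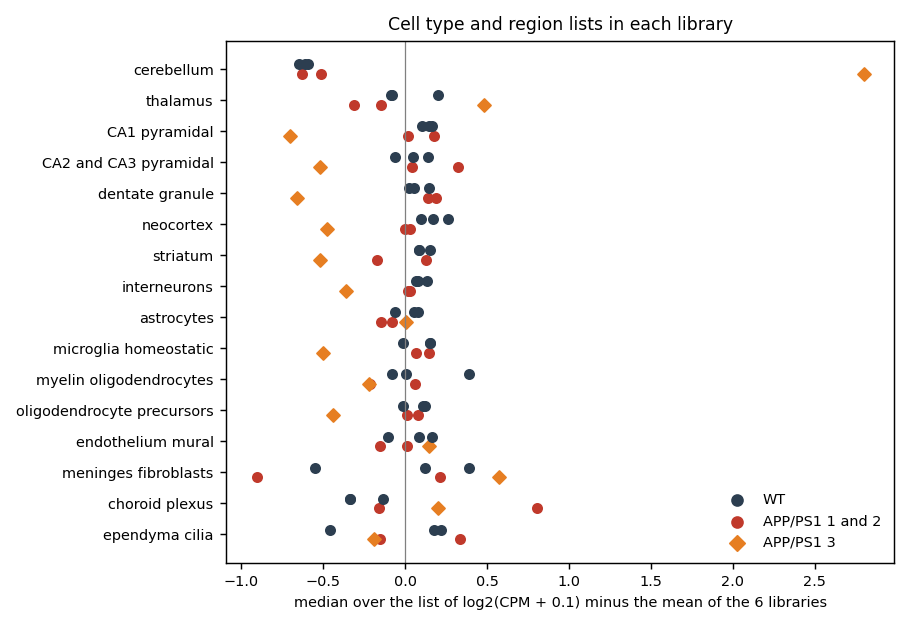
Median over each cell type or region list of log2(CPM + 0.1) minus the mean of the 6 libraries, one point per library, with WT as dark circles, APP/PS1 replicates 1 and 2 as red circles and APP/PS1 replicate 3 as an orange diamond. The cerebellum list lies at 2.80 in APP/PS1 replicate 3 and between -0.65 and -0.51 in the other libraries, while the CA1 list lies at -0.70 there and between 0.02 and 0.18 elsewhere.

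The markers of the labelled tissue were present in all 6 libraries. The 16 CA1 pyramidal markers summed to 1161 to 1272 CPM in the other 5 libraries and to 776.5 CPM in APP/PS1 replicate 3, and the 16 dentate granule cell markers to 1304 to 1545 and 1291 CPM. Prox1, the transcription factor that specifies granule cells, stood at 142, 131 and 111 CPM in APP/PS1 and 145, 129.6 and 139.5 CPM in WT. Wfs1, an endoplasmic reticulum protein enriched in CA1, stood at 152, 132 and 90.2 CPM in APP/PS1 and 137, 172 and 142 CPM in WT. With 5 libraries the medians of the CA1, CA2 and CA3, and dentate lists were 0.0019, 0.06 and 0.07 on the log2 scale, and all 3 lay below 0 with 6. In bulk RNA, fewer cells of a type and less RNA per cell cannot be told apart.

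Between the genotypes 1 gene passed edgeR's quasi-likelihood test with 6 libraries and 5 passed with 5, at a Benjamini-Hochberg adjusted p under 0.05 over 18060 and 18302 genes. These are 0.00554% and 0.0273% of the genes tested. Dag1 fell with 6 libraries and again with 5. With 5 libraries App, Prnp and Fgf12 rose as well (0.0164% of genes were called higher), and Gabra3 fell with Dag1 (0.0109% were called lower). Because so few genes passed, the text also gives genes by their unadjusted p: 617 genes (3.42%) were under 0.05 with 6 libraries, 343 higher in APP/PS1 (1.9%) and 274 lower (1.52%). With 5 libraries there were 737 (4.03%), 344 higher (1.88%) and 393 lower (2.15%). In both comparisons and in the same direction there were 379 (2.1%), 188 of them higher (1.04%) and 191 lower (1.06%). The median log2 fold change of all genes, APP/PS1 over WT, was 0.011 with 6 libraries, where 52.3% of genes had a positive value, and -0.0011 with 5, where 49.7% had one. Unadjusted p values below come from the same edgeR test, and a pair of log2 fold changes or p values gives the one with 6 libraries first and the one with 5 next.

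The transcripts that report on the construct came first. App (chromosome 16, 84952666 to 85175255, mm10), which encodes amyloid precursor protein, stood at 3170.1, 3465 and 2948 CPM in APP/PS1 and 1580.4, 1522 and 1548 CPM in WT. All APP/PS1 libraries lay far above all WT libraries, which differed little among themselves. The log2 fold change was 1.04 (SE 0.09) with 6 libraries and 1.09 (SE 0.07) with 5, with an adjusted p of 0.117 and 0.0136 by edgeR's quasi-likelihood test. Prnp (chromosome 2, 131909928 to 131938436), the prion protein gene, stood at 1019, 1160.2 and 937 CPM in APP/PS1 and 475, 509 and 527 CPM in WT. The groups were as far apart as for App, and APP/PS1 replicate 3 was the lowest transgenic library for both genes. The log2 fold change of Prnp was 1.04 (SE 0.10) with 6 libraries and 1.11 (SE 0.08) with 5, with an adjusted p of 0.165 and 0.0172 in the same edgeR tests. The whole-gene counts do not separate endogenous from transgene sequence, and Prnp overlaps the gene Prn.

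Without any 1 of the WT libraries the App and Prnp calls of the 5-library comparison were lost, with edgeR's adjusted p from 0.0893 to 0.122. Leaving out APP/PS1 replicate 1 or 2 from this comparison leaves 1 transgenic library, so the spread within APP/PS1 cannot be judged and only effect sizes are given. Without replicate 1 the log2 fold change was 1.156 for App and 1.199 for Prnp. Without replicate 2 it was 1.03 for App and 1.014 for Prnp. Among the other genes that cut, carry or clear amyloid precursor protein no gene passed. Of the 24 genes on this list, App included, 14 had a positive log2 fold change with 6 libraries and 11 with 5, with medians of 0.05 and -0.0069. Bace1, the beta-secretase, stood at 153, 145 and 151 CPM in APP/PS1 and 152, 152 and 147 CPM in WT, so the genotypes overlapped. Adam10, the main alpha-secretase of neurons, stood at 132, 132 and 160.2 CPM in APP/PS1 and 133, 119 and 127 CPM in WT. Adam17, another alpha-secretase, stood at 22.7, 23.1 and 26.6 CPM in APP/PS1 and 21.2, 19.6 and 19.1 CPM in WT, and its groups did not overlap. Its log2 fold change was 0.27 (SE 0.10) with 6 libraries and 0.19 (SE 0.08) with 5, with an unadjusted p of 0.0293 and 0.0515. Ece2, an endothelin-converting enzyme that can degrade amyloid beta, stood at 22.8, 21.9 and 31.3 CPM in APP/PS1 and 20.8, 20.4 and 14.8 CPM in WT, without overlap and with log2 fold changes of 0.44 and 0.26.

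Dag1 (chromosome 9, 108204861 to 108263977) had the lowest ratio of APP/PS1 to WT among the called genes. It encodes dystroglycan, whose alpha subunit binds laminin, agrin and neurexin outside the cell and whose beta subunit spans the membrane and holds dystrophin inside it. In the brain it sits on astrocyte endfeet around vessels and at inhibitory synapses of pyramidal cells. Dag1 stood at 24.5, 15.9 and 19.2 CPM in APP/PS1 and 176, 160.0 and 156 CPM in WT. The highest APP/PS1 library lay below every WT library, and APP/PS1 replicate 3 lay between the other transgenic libraries. The log2 fold change was -3.04 (SE 0.17) with 6 libraries and -3.02 (SE 0.20) with 5, with an adjusted p of 0.0139 and 0.0152 by edgeR's quasi-likelihood test. Over all alternatives the log2 fold change ran from -3.37 to -2.74 and edgeR's adjusted p reached 0.176, without WT replicate 1. The call was also lost with 6 libraries without WT replicate 2, with adjusted p 0.0841, and with 5 libraries without WT replicate 1, 2 or 4, with adjusted p from 0.0673 to 0.122.

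The partners of dystroglycan lay on both sides of 0. Of 28 tested genes of the complex, its ligands and the enzymes that glycosylate it, 16 lay above and 12 below 0 with 6 libraries, 12 and 16 with 5, and the median log2 fold changes were 0.0063 and -0.0082. Dmd, encoding dystrophin, stood at 231, 217 and 177 CPM in APP/PS1 and 221, 208 and 233 CPM in WT. Utrn, its relative utrophin, stood at 125, 155 and 199.8 CPM in APP/PS1 and 132, 135 and 148 CPM in WT. Agrn, which encodes the ligand agrin, stood at 158, 122 and 100.4 CPM in APP/PS1 and 137, 127 and 136 CPM in WT. In each of these genes the genotypes overlapped. Sgcb, a sarcoglycan, stood at 53.7, 56.2 and 53.2 CPM in APP/PS1 and 50.8, 50.2 and 49 CPM in WT. Aqp4 and Kcnj10, the water and potassium channels that the complex anchors at endfeet, had log2 fold changes of 0.13 and -0.11 for Aqp4 and -0.07 and -0.13 for Kcnj10.

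Gabra3 (chromosome X, 72432676 to 72656919) encodes the alpha3 subunit of the GABA-A receptor, the chloride channel that carries fast inhibition. It stood at 32.9, 35.6 and 46.8 CPM in APP/PS1 and 84.2, 81 and 86.6 CPM in WT. All transgenic libraries lay well below every WT library, and APP/PS1 replicate 3 was the nearest to WT. On the log2 scale the difference was -1.13 (SE 0.14) with 6 libraries and -1.30 (SE 0.07) with 5, with an adjusted p of 0.428 and 0.0136 by edgeR's test. The 5-library call was lost without WT replicate 1, 2 or 4, with adjusted p from 0.0594 to 0.122. The other 18 tested genes of GABA-A receptors and their anchors had no unadjusted p under 0.05 in either comparison. The list of 19 had a median of -0.10 with 6 libraries and -0.06 with 5. Gabra5, the extrasynaptic alpha subunit typical of the hippocampus, stood at 208, 153 and 79.9 CPM in APP/PS1 and 203, 166 and 168 CPM in WT. Gphn, encoding the scaffold gephyrin, stood at 94.4, 99.9 and 108 CPM in APP/PS1 and 98.6, 98.3 and 98.4 CPM in WT. Both overlapped between the genotypes. Nlgn2, the adhesion protein of inhibitory synapses, stood at 294, 268 and 275 CPM in APP/PS1 and 307, 305 and 296 CPM in WT, without overlap and with log2 fold changes of -0.12 and -0.11. Gabra2 varied in both genotypes, at 200.1, 77.6 and 85.3 CPM in APP/PS1 and 135, 175 and 177 CPM in WT.

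Fgf12 (chromosome 16, 28157783 to 28753243) encodes an intracellular fibroblast growth factor homologue that binds the tail of voltage-gated sodium channels. It stood at 148, 176 and 70.2 CPM in APP/PS1 and 68.7, 64.6 and 68.2 CPM in WT. APP/PS1 replicates 1 and 2 were high and replicate 3 lay within 2 CPM of the highest WT library, so that this difference rests on 2 transgenic libraries. In log2 terms it was 0.97 (SE 0.31) with 6 libraries and 1.26 (SE 0.09) with 5, with an adjusted p of 0.887 and 0.0169 by edgeR's test. Without WT replicate 1, 2 or 4 the 5-library call was lost, with adjusted p from 0.0894 to 0.122. The 3 other members of this gene family were looked at beside it: Fgf11 stood at 43.2, 36.6 and 52.9 CPM in APP/PS1 and 39.3, 38.6 and 46.7 CPM in WT, and the log2 fold changes were -0.21 and 0.04 for Fgf13 and 0.38 and -0.0014 for Fgf14.

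**Figure D2:**
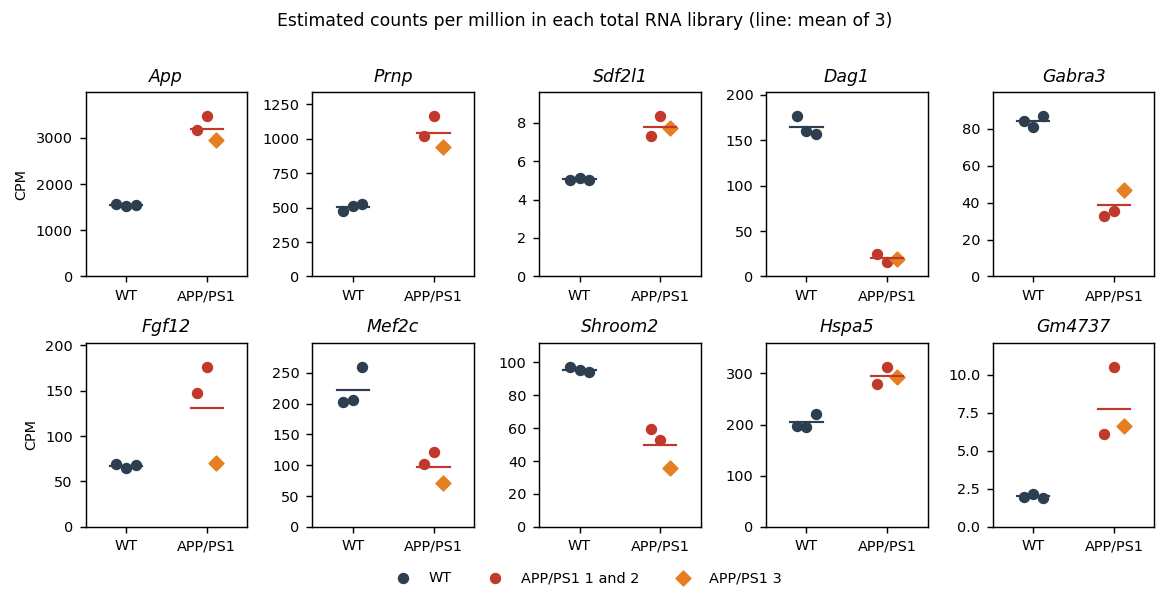
CPM of 10 genes in each library, with WT on the left and APP/PS1 on the right of each panel, APP/PS1 replicate 3 as a diamond and a line at the mean of 3 libraries. Each vertical axis starts at 0. Dag1 lies at 15.9 to 24.5 CPM in APP/PS1 and at 156 to 176 CPM in WT, and Fgf12 in APP/PS1 replicate 3 lies at the WT level.

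Beyond the called genes, a fixed rule took for each direction the 15 genes with the smallest unadjusted p in both comparisons whose groups did not overlap. Without overlap were 1877 genes (10.4%) with 6 libraries, of which the higher made up 5.63% of all genes and the lower 4.76%. With 5 libraries there were 3550 (19.4%), with 10% higher and 9.38% lower. In none of the genes of the next paragraphs did edgeR's adjusted p pass, so they are given as values. For the genes this rule took, the lack of overlap follows from the rule and is no result of its own. DESeq2, run as an alternative, called 17 genes in both comparisons, 9 higher and 8 lower. These were App, Prnp, Aldh7a1, Gm4737, Cdh3, Hspa5, Sdf2l1, Gsr and 4930402H24Rik higher, and Dag1, Gabra3, Mef2c, Shroom2, Dusp26, Capza1, Xlr3b and Hist2h3c1 lower. The last 2 lie outside the rule and were chosen after their values were seen. Hist2h3c1 stood at 2.55, 2.03 and 0.00679 CPM in WT and at under 0.01 CPM in all APP/PS1 libraries, so 1 WT library was as low as APP/PS1.

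Among the lower genes, Mef2c (chromosome 13, 83504017 to 83667079), a transcription factor of excitatory neurons and microglia that restrains synapse number, stood at 101, 121 and 70.6 CPM in APP/PS1 and 203, 206 and 259.7 CPM in WT. Its groups lay far apart, and APP/PS1 replicate 3 was the lowest library. The log2 fold change was -1.19 (SE 0.21) with 6 libraries and -1.01 (SE 0.14) with 5, with an unadjusted p of 0.000898 and 0.000233. Values of its relatives overlapped between the genotypes: Mef2a stood at 283, 271 and 258 CPM in APP/PS1 and 293, 266 and 280.5 CPM in WT, and Mef2d had log2 fold changes of -0.09 and -0.05. Mef2c also marks the upper layers of the neocortex, whose list of 20 genes had medians of -0.25 and -0.19. Of these 20, 5 had positive log2 fold changes with 6 libraries and 7 with 5. Mef2c was the 1 member with an unadjusted p under 0.05 in both comparisons, where 1.06% of all genes were lower in both. Cplx3, a complexin of deep cortical layers and retina, stood at 2.93, 5.94 and 4.05 CPM in APP/PS1 and 5.43, 7.92 and 10.2 CPM in WT. Its groups overlapped. Lamp5, a membrane protein of cortical interneurons and upper-layer cells, stood at 23.2, 23.3 and 13.8 CPM in APP/PS1 and 26.2, 29.1 and 26.9 CPM in WT. The summed neocortex list was 1218 to 1286 CPM in APP/PS1 replicates 1 and 2, 1204 in replicate 3 and 1296 to 1489 CPM in WT. This sum includes Mef2c itself, so it is not independent of the Mef2c difference. The part of cortical tissue in that difference was not tested.

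Shroom2 (chromosome X, 152609509 to 152770788), an actin-binding protein that shapes cells through myosin, stood at 59.4, 53 and 36.1 CPM in APP/PS1 and 97.3, 95.6 and 94.1 CPM in WT. WT libraries agreed within 4 CPM, and all APP/PS1 libraries lay lower. Its log2 fold change was -0.95 (SE 0.18) with 6 libraries and -0.77 (SE 0.07) with 5. The adjusted p in edgeR's test was 0.887 with 6 libraries and 0.0856 with 5. Capza1, which encodes an alpha subunit of the protein that caps actin filaments, stood at 8.86, 15.9 and 13.9 CPM in APP/PS1 and 29.1, 23.9 and 29.8 CPM in WT. Its partner subunits showed other values: Capza2 stood at 152, 155 and 126 CPM in APP/PS1 and 132, 125 and 129.7 CPM in WT. For Capzb the values were 184, 169.8 and 135 CPM in APP/PS1 and 193, 181 and 166 CPM in WT, and both genes overlapped between genotypes. Dusp26, a phosphatase abundant in neurons, stood at 19.7, 21.7 and 19.3 CPM in APP/PS1 and 26.7, 31.6 and 31.1 CPM in WT. Arpp21, a neuronal RNA-binding phosphoprotein, stood at 174, 139 and 187 CPM in APP/PS1 and 234, 266 and 229 CPM in WT, and it overlaps the noncoding gene 2310075C17Rik. Meis2, a homeobox factor, stood at 53.2, 36.8 and 31 CPM in APP/PS1 and 64.7, 82.6 and 71.5 CPM in WT. The log2 fold changes were -1.10 and -1.16 for Capza1, -0.56 and -0.53 for Dusp26, -0.54 and -0.64 for Arpp21 and -0.86 and -0.70 for Meis2.

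The other lower genes had diverse known roles. Slc13a5, the citrate transporter of the plasma membrane, stood at 7.36, 8.14 and 7.18 CPM in APP/PS1 and 9.84, 11 and 11.1 CPM in WT. Gstm6, a glutathione transferase, stood at 2.86, 4.74 and 3.29 CPM in APP/PS1 and 6.88, 6.57 and 7.25 CPM in WT. Gdpgp1, a phosphorylase of guanosine diphosphate sugars, stood at 8.07, 8.34 and 7.77 CPM in APP/PS1 and 11.4, 10.4 and 10.5 CPM in WT. None of these 3 overlapped between genotypes, as the rule required. Rab3il1, an exchange factor for Rab proteins, and Commd7 had log2 fold changes of -0.48 and -0.41 for Rab3il1 and -0.55 and -0.65 for Commd7. Smyd1, a methyltransferase known from muscle, was rare at 0.506, 0.57 and 0.578 CPM in APP/PS1 and 1.18, 1 and 1.32 CPM in WT. Pcdha1 stood at 2.52, 2.04 and 2.09 CPM in APP/PS1 and 3.6, 3.68 and 3.44 CPM in WT, and it shares its downstream exons with the other clustered alpha protocadherins, so its counts cannot be assigned with certainty.

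Among the higher genes, Gm4737 (chromosome 16, 46152985 to 46155077), a predicted gene on the same chromosome as App, stood at 6.08, 10.5 and 6.65 CPM in APP/PS1 and 1.98, 2.15 and 1.88 CPM in WT. Aldh7a1, an aldehyde dehydrogenase of lysine breakdown, stood at 53.7, 63.6 and 55.4 CPM in APP/PS1 and 37, 36.8 and 40.0 CPM in WT, and it overlaps Phax. Gsr, glutathione reductase, which keeps glutathione reduced, stood at 31.9, 35.3 and 39.9 CPM in APP/PS1 and 25.6, 25.7 and 25 CPM in WT. The log2 fold changes were 1.95 and 2.05 for Gm4737, 0.60 and 0.62 for Aldh7a1 and 0.49 and 0.40 for Gsr. Cdh3, which encodes the adhesion protein P-cadherin, stood at 4.2, 5.81 and 4.38 CPM in APP/PS1 and 2.48, 2.37 and 1.85 CPM in WT. 4930402H24Rik stood at 141, 122 and 146 CPM in APP/PS1 and 86.3, 94.8 and 89.2 CPM in WT, and it overlaps the pseudogene Gm14057. Srsf7, a splicing factor, stood at 52.2, 51.1 and 56.2 CPM in APP/PS1 and 43.2, 38.8 and 41 CPM in WT. None of these 3 overlapped, again as the rule required. Usp15, a deubiquitinase, stood at 147, 149 and 154 CPM in APP/PS1 and 123, 125 and 126 CPM in WT, with log2 fold changes of 0.27 and 0.25. Swt1 and 9030025P20Rik completed the list, with log2 fold changes of 0.47 and 0.35 for Swt1 and 0.49 and 0.38 for 9030025P20Rik. The remaining members, Hspa5, Sdf2l1, Ptges3 and Chordc1, are chaperones or their partners and are described with the folding genes.

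Chaperones of the endoplasmic reticulum (ER) lay above WT in both comparisons. These proteins fold and inspect secreted and membrane proteins, and their genes are induced when unfolded proteins gather, through the sensors IRE1, PERK and ATF6. Many of their promoters carry the ER stress response element, a CCAAT box and a CCACG box held at a fixed distance, which binds NF-Y and ATF6 or XBP1. Of 28 genes on this list 26 had positive log2 fold changes with 6 libraries and 23 with 5, with medians of 0.20 and 0.18. The median was positive in all alternatives, between 0.16 and 0.23. With an unadjusted p under 0.05 in both comparisons were 7 genes, all higher, where 1.04% of all genes were. This and the other lists were written with earlier results of these data known, so such shares describe the lists and test nothing. No member passed edgeR's adjusted test. Summed over the list, APP/PS1 libraries held 3138, 3140 and 2965 CPM and WT libraries 2754, 2662 and 2766 CPM, so the sums did not overlap.

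Sequence upstream of these genes is shown because many promoters of this list are known to carry this element. Promoters of RefSeq, build GRCm38.p6, were found for 25 of the 28 genes and were searched over 250 bases before the start site, on both strands. The letters searched were CCAAT and CCACG with 9 bases of any kind between them, which read CGTGG, 9 bases and ATTGG on the other strand. A match was found for 9 of the 25 genes and for 0 of the 17 heat shock list genes with a promoter. Over the mouse genome it was found in 37 of 32851 promoters (0.113%), which belong to 35 of 27025 genes, these 9 included. The 9 genes were Calr, Canx, Creld2, Derl3, Dnajc3, Hsp90b1, Hspa5, Pdia6 and Syvn1. Capitals mark the match in each of the 6 windows shown, read along the gene's strand.
Hspa5 (chr2:34772013-34772055, plus strand): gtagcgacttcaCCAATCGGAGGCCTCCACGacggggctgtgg
Dnajc3 (chr14:118937815-118937857, plus strand): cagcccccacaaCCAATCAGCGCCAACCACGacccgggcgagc
Creld2 (chr15:88819508-88819550, plus strand): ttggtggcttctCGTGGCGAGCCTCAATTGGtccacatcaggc
Pdia6 (chr12:17266479-17266521, plus strand): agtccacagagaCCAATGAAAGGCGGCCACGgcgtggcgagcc
Hsp90b1 (chr10:86705521-86705668, minus strand): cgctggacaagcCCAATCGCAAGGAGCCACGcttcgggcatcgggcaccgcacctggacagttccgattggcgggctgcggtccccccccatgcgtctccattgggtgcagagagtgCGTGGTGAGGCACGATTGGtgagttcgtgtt
Syvn1 (chr19:6046520-6046562, plus strand): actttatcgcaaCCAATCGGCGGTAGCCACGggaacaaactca
The first 5 genes had positive log2 fold changes in both comparisons and Syvn1 is shown as a member with the same element and a value near 0. The window of Hsp90b1 holds 2 matches, the second on the other strand. Creld2 carries the reverse complement. A match is a description of these letters and not evidence of binding.

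The values behind the element differed among its 9 carriers. Hspa5 (chromosome 2, 34772090 to 34776529) encodes BiP, the chaperone that holds unfolded chains and keeps the sensors silent, and it stood at 279.7, 313 and 292 CPM in APP/PS1 and 198, 196 and 220.3 CPM in WT. Its log2 fold change was 0.53 (SE 0.08) with 6 libraries and 0.53 (SE 0.08) with 5, with an unadjusted p of 0.000518 and 0.000453, and it overlaps Rabepk on the genome. Hsp90b1, the chaperone GRP94, stood at 449, 473 and 456 CPM in APP/PS1 and 384, 394 and 401 CPM in WT. Dnajc3, a co-chaperone of BiP that also inhibits PERK, stood at 80.8, 84.4 and 87.8 CPM in APP/PS1 and 66.2, 71.2 and 71.4 CPM in WT. In these genes every APP/PS1 library lay above every WT library. Creld2, a secreted protein with disulfide isomerase activity, stood at 8.61, 9.46 and 8.63 CPM in APP/PS1 and 6.92, 7.59 and 7.67 CPM in WT. Pdia6, a disulfide isomerase that regulates IRE1, stood at 89.3, 87.9 and 70.5 CPM in APP/PS1 and 69.9, 66.9 and 75 CPM in WT, and APP/PS1 replicate 3 lay among the WT libraries. Calr and Canx, the lectin chaperones calreticulin and calnexin, had log2 fold changes of 0.10 and 0.17 for Calr and 0.08 and 0.12 for Canx, and both overlapped. Syvn1, a ubiquitin ligase that removes misfolded proteins, stood at 61.3, 47.7 and 57.1 CPM in APP/PS1 and 62.4, 50.3 and 51.1 CPM in WT. Derl3 stood at 1.28, 1.38 and 1.5 CPM in APP/PS1 and 0.888, 1.47 and 1.49 CPM in WT.

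Members without this match included others of the highest. Sdf2l1, an ER protein that works with BiP, stood at 7.28, 8.32 and 7.7 CPM in APP/PS1 and 5.02, 5.11 and 5.03 CPM in WT. WT libraries agreed within 0.1 CPM, and the log2 fold change was 0.62 (SE 0.11) with 6 libraries and 0.62 (SE 0.12) with 5, with an unadjusted p of 0.00115 and 0.0016. Manf, a secreted protein that protects neurons, stood at 39.8, 48.8 and 45.7 CPM in APP/PS1 and 35.1, 33.4 and 38.4 CPM in WT. Xbp1, the transcription factor spliced by IRE1, stood at 64.1, 59.8 and 79.4 CPM in APP/PS1 and 53.4, 47.8 and 55.3 CPM in WT. Neither overlapped between genotypes. Pdia4, a further disulfide isomerase, stood at 72.8, 88.5 and 69.8 CPM in APP/PS1 and 65.3, 59.8 and 68.1 CPM in WT. Herpud1, a membrane protein of ER-associated degradation whose promoter holds a related element of ATTGG, 1 base of any kind and CCACG, stood at 36.7, 45.6 and 46.3 CPM in APP/PS1 and 39, 35.2 and 33.3 CPM in WT, where WT replicate 1 lay above APP/PS1 replicate 1. The related element was in 0.0304% of the promoters. Derl2, a channel component of the same degradation route, stood at 19.2, 22 and 19.9 CPM in APP/PS1 and 17.6, 9.43 and 6.12 CPM in WT, and the WT libraries differed almost 3-fold among themselves.

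Genes of the arm that runs through PERK lay on both sides of 0. Atf4, its transcription factor, stood at 78.6, 98.6 and 101 CPM in APP/PS1 and 99.1, 75.7 and 78.7 CPM in WT. Ddit3, the death-linked factor CHOP, stood at 10.3, 9.2 and 10.1 CPM in APP/PS1 and 8.52, 7.62 and 8.95 CPM in WT, without overlap but with an unadjusted p of 0.0763 and 0.111. Trib3 and Chac1, targets of both, had log2 fold changes of 0.54 and -0.09 for Trib3 and -0.22 and -0.16 for Chac1. Ppp1r15a, which reverses the block on translation, stood at 15.2, 15.3 and 19.2 CPM in APP/PS1 and 13.7, 15.2 and 15.1 CPM in WT. Dnajb9 and Edem1 are targets of XBP1, and both overlapped. Dnajb9 stood at 43.4, 46.2 and 46.8 CPM in APP/PS1 and 45.2, 44.5 and 46 CPM in WT. For Edem1 the values were 21.7, 23.4 and 20.2 CPM in APP/PS1 and 21.4, 24.8 and 22.1 CPM in WT.

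**Figure D3:**
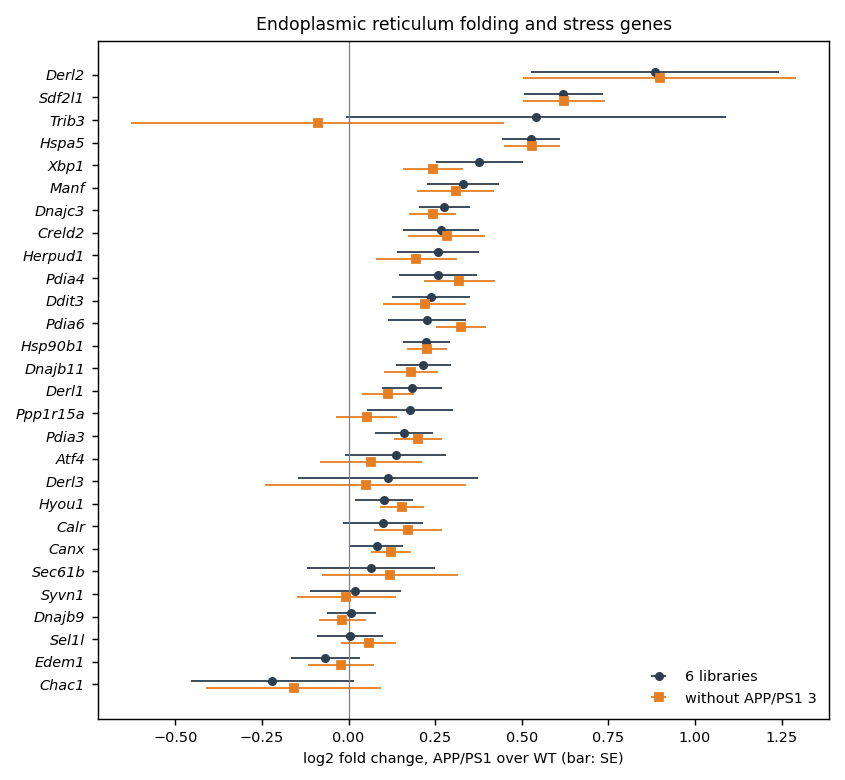
Log2 fold change of APP/PS1 over WT for the 28 genes of the ER folding and stress list, with its standard error, from 6 libraries (dark circles) and without APP/PS1 replicate 3 (orange squares). Hspa5 lies at 0.53 in both comparisons, and 26 genes lie above 0 with 6 libraries.

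Heat shock proteins, the chaperones of cytosol and mitochondria, had positive medians too. Of 22 tested genes 19 had positive log2 fold changes with 6 libraries and 21 with 5, with medians of 0.16 and 0.13. Of the 22, Chordc1 and Hspb1 had an unadjusted p under 0.05 in both, both higher, where 1.04% of all genes were. This list too was written with earlier results known, and Chordc1 was also taken by the fixed rule above. Chordc1, a partner of HSP90, stood at 76.8, 77.5 and 71.5 CPM in APP/PS1 and 63.3, 54.5 and 60.7 CPM in WT. Hspb1, a small heat shock protein of astrocytes and vessels, stood at 7.66, 6.09 and 6.7 CPM in APP/PS1 and 4.04, 5.16 and 4.43 CPM in WT. Neither overlapped between genotypes. Hspa1a and Hspa1b, the stress-induced HSP70 pair whose near-identical sequences share reads, had log2 fold changes of 0.27 and 0.35 for Hspa1a and 0.43 and 0.54 for Hspa1b. Ptges3, the HSP90 co-chaperone p23, which is not on this list, stood at 131, 141 and 130.2 CPM in APP/PS1 and 104, 104 and 113 CPM in WT. The constitutive Hspa8 stood at 1524, 1396 and 1485 CPM in APP/PS1 and 1385, 1267 and 1586 CPM in WT, with overlap. Hspd1, the mitochondrial HSP60, stood at 155, 156 and 139 CPM in APP/PS1 and 129, 131 and 141 CPM in WT, and it abuts Hspe1, for which the log2 fold changes were -0.03 and 0.01.

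Choroid plexus genes had the highest median of all lists with at least 5 tested genes, the cerebellum list aside with 6 libraries. The choroid plexus epithelium secretes cerebrospinal fluid and the thyroxine carrier transthyretin. All 25 members lay above 0 with 6 libraries and 24 with 5, with median log2 fold changes of 0.59 and 0.62, and 10 had an unadjusted p under 0.05 in both, all higher, where 1.04% of all genes were. The summed list was 3262, 6937 and 4265 CPM in APP/PS1 and 2887, 3384 and 3081 CPM in WT. APP/PS1 replicate 2 was the highest, and replicate 1 lay within the WT range. Without APP/PS1 replicate 2 the median was 0.25 with 6 libraries and 0.03 with 5. Ttr stood at 1533, 3481 and 2092 CPM in APP/PS1 and 1262, 1552 and 1466 CPM in WT. Prlr, the prolactin receptor of this epithelium, stood at 73.1, 144 and 92.6 CPM in APP/PS1 and 62.7, 65.5 and 60.9 CPM in WT. Clic6, an ion channel protein, stood at 46.7, 92.1 and 59.1 CPM in APP/PS1 and 37.7, 44.3 and 39.3 CPM in WT. APP/PS1 replicate 2 was the highest library in each. Kl, encoding klotho, stood at 109.5, 244 and 135 CPM in APP/PS1 and 105, 105 and 98.4 CPM in WT. Slc4a5, a bicarbonate transporter, stood at 20.4, 41.2 and 26.6 CPM in APP/PS1 and 17.7, 18.7 and 17.6 CPM in WT. In these 2 genes it was the highest as well, and of the 5 genes only Ttr overlapped between genotypes. How much choroid plexus each dissection held was not tested apart from these genes.

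Cilia genes of the ependyma, which lines the ventricle, had medians of 0.11 in both comparisons, and their summed level was 108.5, 136.1 and 129.2 CPM in APP/PS1 and 71.6 to 117.2 CPM in WT. Spag16, an axoneme protein, stood at 3.82, 5.77 and 3.45 CPM in APP/PS1 and 3.51, 2.96 and 2.77 CPM in WT. Genes of the meninges and of fibroblasts varied in both genotypes. Their sum was 565.6, 1314 and 1374 CPM in APP/PS1 and 697.4, 1346 and 1342 CPM in WT, with list medians of 0.03 and -0.33. Ptgds, the prostaglandin synthase of meninges, stood at 198, 579 and 717 CPM in APP/PS1 and 296, 722 and 684 CPM in WT. Igf2, made by both meninges and choroid plexus, stood at 71.4, 300.4 and 104 CPM in APP/PS1 and 77, 169 and 171 CPM in WT. The low APP/PS1 library and the low WT library were each replicate 1.

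Myelin genes lay lower in APP/PS1 than in WT replicate 1. All 22 genes of mature oligodendrocytes had negative log2 fold changes in both comparisons, with medians of -0.24 and -0.20, and 1 had an unadjusted p under 0.05 with 6 libraries (1.52% of all genes were lower) and none with 5 (2.15%). The sums were 3499, 4170 and 3461 CPM in APP/PS1 and 5420, 4006 and 3666 CPM in WT, so the groups overlapped. WT replicate 1 was the highest library, and without it the median was -0.07 with 6 libraries and -0.05 with 5. Mbp, myelin basic protein, stood at 1423, 1644 and 1359 CPM in APP/PS1 and 2099, 1595 and 1419 CPM in WT. Opalin stood at 5.73, 7.57 and 5.91 CPM in APP/PS1 and 11.5, 9.48 and 7.16 CPM in WT. In both genes WT replicate 1 was the highest library and the groups overlapped. Bcas1, a gene of newly myelinating cells, stood at 75, 73.6 and 57.4 CPM in APP/PS1 and 264, 83.6 and 78.6 CPM in WT, more than 3-fold higher in WT replicate 1 than in any other library. Precursor genes had medians of -0.16 and -0.04. Sox10, the factor of the whole lineage, stood at 34.2, 33.7 and 25.3 CPM in APP/PS1 and 47.4, 36.6 and 35.5 CPM in WT.

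Some genes induced by neuronal activity lay lower in every APP/PS1 library. The 30 immediate early genes, transcription factors and effectors switched on within minutes of firing, had medians of -0.19 in both comparisons, with 25 and 22 negative. With an unadjusted p under 0.05 in both were 5 genes, all lower, against 1.06% of all genes. Egr1, a zinc finger factor of synaptic plasticity, stood at 184, 195 and 114 CPM in APP/PS1 and 220.1, 259 and 252 CPM in WT. Fos stood at 21.4, 20.8 and 22.7 CPM in APP/PS1 and 24.5, 32.3 and 25 CPM in WT. Nr4a1, an orphan nuclear receptor, stood at 63.9, 52 and 37.8 CPM in APP/PS1 and 68.9, 79.6 and 65.5 CPM in WT. In these 3 genes no APP/PS1 library reached the lowest WT library. Arc, which acts at the synapse, stood at 198, 163 and 91 CPM in APP/PS1 and 201, 237 and 209.8 CPM in WT. Npas4, the factor most specific to activity, stood at 18.5, 14.7 and 8.39 CPM in APP/PS1 and 17.5, 22.6 and 16.8 CPM in WT, and APP/PS1 replicate 1 lay among the WT libraries. Dusp1, a phosphatase of stress kinases, had log2 fold changes of -0.05 and -0.49, and Inhba, an activin subunit, -0.03 and 0.26. The summed list was 1840, 1711 and 1194 CPM in APP/PS1 and 1878, 1964 and 1962 CPM in WT. Without WT replicate 2 the 5-library median was -0.10, and without APP/PS1 replicate 1 the 6-library median was -0.30.

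Clock genes and targets of glucocorticoids, which follow the hour and the handling of the animals, were looked at beside them. Neither the hour of death nor corticosterone is among the labels. The 20 clock genes had medians of -0.09 and -0.10. Per1, which belongs to clock, glucocorticoid and activity lists alike, stood at 126, 117 and 119 CPM in APP/PS1 and 133, 140.3 and 139 CPM in WT, without overlap and with an unadjusted p of 0.0359 and 0.0286. Dbp, a clock output factor with a large daily swing, stood at 26.9, 40.6 and 38 CPM in APP/PS1 and 36.5, 45.9 and 57.1 CPM in WT. The 22 glucocorticoid genes had medians of -0.08 and -0.06. Plin4, a lipid droplet protein induced by the hormone, stood at 27.2, 27.8 and 29.8 CPM in APP/PS1 and 32, 32.8 and 32 CPM in WT. Fkbp5, its most used marker, stood at 63.8, 66.6 and 39 CPM in APP/PS1 and 64.7, 69.3 and 59 CPM in WT, with overlap. Sgk1, a kinase induced by the hormone, overlapped too, with log2 fold changes of 0.05 and 0.07.

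Microglial genes had a median near 0 once APP/PS1 replicate 3 was left out. The 21 homeostatic genes had a median of -0.21 with 6 libraries and 0.0047 with 5. Their sum was 463.4 to 499.2 CPM in APP/PS1 replicates 1 and 2, 324.2 CPM in replicate 3 and 461 to 510.4 CPM in WT. Cx3cr1, the fractalkine receptor, stood at 44.9, 33.3 and 21.9 CPM in APP/PS1 and 33.5, 36.4 and 33.9 CPM in WT. Mertk, a receptor for dying cells on microglia and astrocytes, stood at 61.2, 62.1 and 49.7 CPM in APP/PS1 and 70.6, 74.8 and 73.6 CPM in WT, without overlap and with an unadjusted p of 0.015 and 0.00715. Ptprc, the leukocyte antigen CD45, stood at 4.22, 4.86 and 3.98 CPM in APP/PS1 and 3.22, 3.75 and 3.08 CPM in WT. The 33 tested genes that mark microglia around amyloid plaques had medians of -0.06 and -0.04. Trem2, a lipid receptor needed for that state, stood at 4.18, 4.21 and 3.53 CPM in APP/PS1 and 6.18, 6.31 and 4.5 CPM in WT, without overlap and with an unadjusted p of 0.026 and 0.0511. Cst7, a cystatin that marks the state sharply, stood at 0.498, 0.57 and 0.622 CPM in APP/PS1 and 0.526, 0.615 and 0.625 CPM in WT, with overlap. Itgax, another sharp marker, stood at 0.236, 0.244 and 0.227 CPM in APP/PS1 and 0.23, 0.378 and 0.0815 CPM in WT, with overlap as well. These transcripts were rare in both genotypes. Clec7a stood at 0, 0.296 and 0.556 CPM in APP/PS1 and 0.493, 0.118 and 0.245 CPM in WT. Cd52, a small surface glycoprotein, stood at 0.49, 0.452 and 0.659 CPM in APP/PS1 and 0.855, 1.01 and 0.761 CPM in WT. It was the 1 member of the 33 with an unadjusted p under 0.05 in both comparisons, where 1.06% of all genes were lower in both.

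Complement genes had medians of -0.06 and -0.05 over 19 tested members. C1qa, a subunit of the initiating C1q complex, stood at 23.2, 20.5 and 14.4 CPM in APP/PS1 and 23, 25 and 20.6 CPM in WT. C4b stood at 46.8, 37.7 and 32.9 CPM in APP/PS1 and 52, 41 and 39.1 CPM in WT. Both overlapped. Interferon response genes had medians of -0.20 and -0.28, with 23 and 25 of 33 negative. Without APP/PS1 replicate 1 these medians were -0.0099 and -0.07, so they rest on that library. Irgm1, an interferon-induced GTPase, stood at 4.68, 5.75 and 5.37 CPM in APP/PS1 and 7.14, 8.21 and 6.62 CPM in WT, without overlap. Of cytokines and adhesion genes, Icam1, the endothelial and microglial ligand of leukocyte integrins, stood at 4.92, 4.12 and 4.96 CPM in APP/PS1 and 3.11, 3.1 and 2.38 CPM in WT. Its log2 fold change was 0.70 (SE 0.17) with 6 libraries and 0.65 (SE 0.19) with 5, with an unadjusted p of 0.00553 and 0.0111. Il1b, encoding interleukin 1 beta, was listed at 0.0844, 0.0444 and 0.0293 CPM in APP/PS1 and 0.189, 0.189 and 0.183 CPM in WT, few counts per library. Ccl2, Tnf and Il6 were at or under 1 CPM in every library.

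Of 20 astrocyte genes 13 lay below 0 with 6 libraries and 18 with 5, with medians of -0.09 and -0.15. Glul, glutamine synthetase, stood at 1768, 1620.4 and 1377 CPM in APP/PS1 and 1968, 1909 and 1949 CPM in WT, without overlap and with an unadjusted p of 0.0333 and 0.0199. Gfap, the intermediate filament raised in reactive astrocytes, stood at 400.4, 276 and 244 CPM in APP/PS1 and 414, 339 and 282 CPM in WT. Slc1a2, the main glutamate transporter, stood at 5356, 6188 and 3925 CPM in APP/PS1 and 6023, 6315 and 5658 CPM in WT. Both overlapped. Reactive astrocyte genes had medians of 0.06 and 0.05. Steap4, a metalloreductase on that list, stood at 0.886, 1.84 and 1.5 CPM in APP/PS1 and 0.855, 0.623 and 0.741 CPM in WT. Serpina3n and Vim, common reactive markers, had log2 fold changes of -0.13 and 0.17 for Serpina3n and 0.34 and 0.02 for Vim. Genes of endothelium and mural cells had medians of -0.02 and -0.11. Ly6c1, an endothelial surface protein, stood at 18.2, 16.9 and 18.9 CPM in APP/PS1 and 21.1, 22.2 and 22.3 CPM in WT. Kdr, the receptor of vascular endothelial growth factor, stood at 20.7, 22.3 and 21.3 CPM in APP/PS1 and 18.8, 18.6 and 18.8 CPM in WT. Their values did not overlap and lay in opposite directions.

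Lists of synaptic and receptor genes had medians below 0 in both comparisons. The 25 glutamate receptor genes had medians of -0.11 and -0.03, the 30 postsynaptic density genes -0.14 and -0.02, and the 37 synaptic vesicle genes -0.07 and -0.06. Vamp2, the vesicle SNARE of transmitter release, stood at 1201, 1112 and 902 CPM in APP/PS1 and 1385, 1246 and 1349 CPM in WT. Rab3b, a vesicle GTPase, stood at 42.1, 45.1 and 27.8 CPM in APP/PS1 and 58.3, 47.4 and 55.2 CPM in WT. Neither overlapped, and the unadjusted p was 0.0412 and 0.0304 for Vamp2 and 0.0395 and 0.0235 for Rab3b. Sv2b, a vesicle glycoprotein, stood at 402, 627 and 494 CPM in APP/PS1 and 382, 345 and 403 CPM in WT, higher in APP/PS1 but with APP/PS1 replicate 1 and WT replicate 4 level. Grm3, the metabotropic receptor mGluR3 of astrocytes and presynaptic terminals, stood at 103, 97 and 78 CPM in APP/PS1 and 111, 109 and 124 CPM in WT. Its groups did not overlap. Camk2a, the kinase of long-term potentiation, stood at 5301, 4215 and 2259 CPM in APP/PS1 and 5234, 4574 and 4664 CPM in WT. Dlg4, the scaffold PSD-95, stood at 995, 892 and 697 CPM in APP/PS1 and 1036, 986 and 996 CPM in WT. Both overlapped, and APP/PS1 replicate 3 was the lowest library of each.

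Receptors for monoamines and acetylcholine had medians of -0.25 and -0.08, their peptide counterparts -0.17 and -0.02. Adra1b, the alpha-1B adrenergic receptor, stood at 2.14, 2.64 and 2.74 CPM in APP/PS1 and 3.21, 3.26 and 3.61 CPM in WT. Chrna4, a nicotinic receptor subunit, stood at 34.2, 34.5 and 19.2 CPM in APP/PS1 and 36.1, 45.5 and 53.4 CPM in WT. Neither overlapped between genotypes, and in Chrna4 APP/PS1 replicate 3 was far lower than the others. Neuropeptide genes had medians of -0.29 and -0.09, with 23 of 30 and 25 of 31 negative. Vgf, a secreted peptide precursor regulated by activity, stood at 165, 164 and 84.8 CPM in APP/PS1 and 182, 191 and 179 CPM in WT. Sst, somatostatin, stood at 103, 92.6 and 39.7 CPM in APP/PS1 and 122, 105 and 112 CPM in WT. Npy, neuropeptide Y, stood at 23.8, 22.7 and 12 CPM in APP/PS1 and 25.6, 24.2 and 29 CPM in WT. In these 3 genes no library of APP/PS1 reached the lowest WT library, and replicate 3 was far the lowest. Of the neuropeptide list, 5 genes lay lower without overlap with 6 libraries and 6 with 5, where 4.76% and 9.38% of all genes did. No neuropeptide gene had an unadjusted p under 0.05 in both comparisons. Pvalb, the calcium buffer of fast-spiking interneurons and Purkinje cells, stood at 21.9, 19.6 and 256 CPM in APP/PS1 and 24.6, 28.1 and 28.3 CPM in WT. Its log2 fold change with 5 libraries was -0.38, with an unadjusted p of 0.00781 in edgeR's test, and in APP/PS1 replicate 3 it was high together with the cerebellar genes. The 50 potassium channel genes had medians of -0.09 and -0.03, and the 30 sodium and calcium channel genes -0.05 and 0.02. Cacnb4, a calcium channel beta subunit, stood at 79.2, 212 and 442 CPM in APP/PS1 and 76.1, 82.3 and 88.3 CPM in WT, so that APP/PS1 replicates 2 and 3 were high and replicate 1 was not.

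Cytoskeletal genes had medians of -0.09 and -0.04. Cdk5r2, the p39 activator of the tau kinase CDK5, stood at 138, 123 and 91.4 CPM in APP/PS1 and 153, 157 and 152 CPM in WT, without overlap and with an unadjusted p of 0.0368 and 0.011. Mapt, encoding tau, stood at 556, 522 and 598 CPM in APP/PS1 and 620.3, 546 and 536 CPM in WT. Gsk3b, another tau kinase, stood at 387, 399 and 358 CPM in APP/PS1 and 398, 378 and 397 CPM in WT. Both overlapped. Among growth factor genes, Gfra2, the neurturin receptor, stood at 30.1, 31.2 and 21.7 CPM in APP/PS1 and 35.4, 38.9 and 34.8 CPM in WT, without overlap. Bdnf stood at 46, 45.1 and 32.6 CPM in APP/PS1 and 47.5, 39.1 and 41.4 CPM in WT, with overlap. Dcx, which marks young neurons of the dentate gyrus, stood at 15.7, 12.8 and 5.86 CPM in APP/PS1 and 14.3, 10.1 and 15.1 CPM in WT, with overlap. The neurogenesis list had medians of -0.11 and 0.0081.

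Housekeeping lists lay close to 0 in both comparisons. The 31 proteasome genes had medians of 0.02 and 0.04, the 65 genes of the respiratory chain 0.03 and 0.02, and the 38 genes of lysosomes and autophagy -0.02 and -0.0014. The 25 genes of cholesterol synthesis had medians of -0.07 and 0.03, and the ribosomal proteins -0.04 and 0.02. None of the genes of the first 4 lists had an unadjusted p under 0.05 in both comparisons. Rpl29, a ribosomal protein of the large subunit, stood at 82.3, 142 and 98 CPM in APP/PS1 and 171, 153 and 164 CPM in WT. Rps27rt stood at 6.77, 40.2 and 32 CPM in APP/PS1 and 5.63, 7.04 and 7 CPM in WT, but its near-identical copy Rps27 stood at 29.5, 2.47 and 2.81 CPM in APP/PS1 and 24.4, 33.7 and 34.2 CPM in WT. Summed over both copies, the highest library held 1.42 times the lowest. The division of reads between these copies therefore differed between libraries, and neither can be reported alone.

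**Figure D4:**
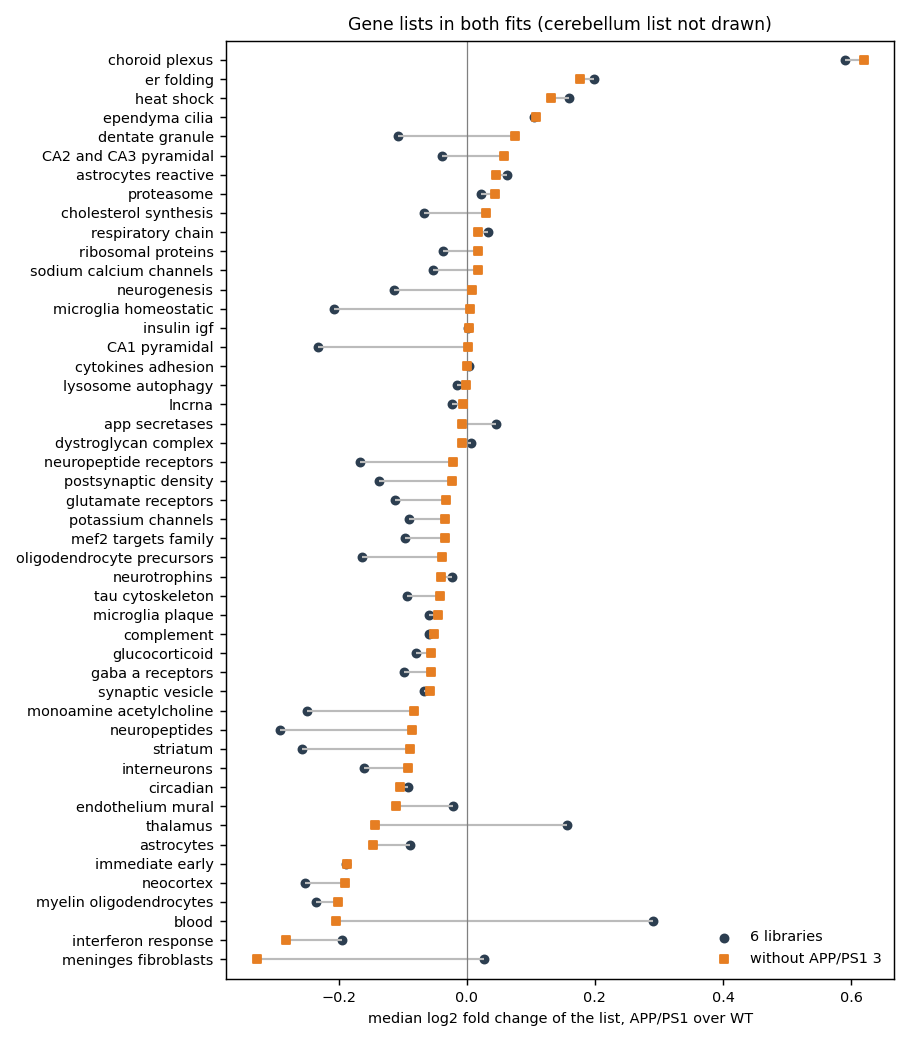
Median log2 fold change of APP/PS1 over WT for each list with at least 5 tested genes, except the cerebellum list, from 6 libraries (dark circles) and without APP/PS1 replicate 3 (orange squares), ordered by the 5-library value. The choroid plexus list lies highest at 0.59 and 0.62, the ER folding list comes next by the 5-library value at 0.20 and 0.18, and lists of CA1 cells, neuropeptides and microglia move towards 0 without replicate 3.

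Across the 49 lists with at least 5 tested genes, 34 medians kept their sign between the comparisons and 14 moved by more than 0.1. With the same sign and a size above 0.15 in both were 6 lists. Choroid plexus and ER folding lay higher. Immediate early, neocortex, myelin and interferon response genes lay lower. All 6 kept their sign under the alternatives tried, from 0.03 to 1.10 for choroid plexus and from -0.30 to -0.10 for immediate early genes. Neocortex medians ran from -0.33 to -0.08, myelin from -0.33 to -0.05 and interferon response from -0.35 to -0.0099.

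Genes with an unadjusted p under 0.05 in both comparisons were spread over the chromosomes, at 1.29% of tested genes on chromosome 5 to 2.62% on chromosome 17. On the X chromosome, which holds Gabra3 and Shroom2, the share was 2.61%. Xlr3b, an X-linked gene of a family of near-identical copies, stood at 0, 0.0666 and 0.0366 CPM in APP/PS1 and 0.872, 1.62 and 0.781 CPM in WT. The 3 copies Xlr3a, Xlr3b and Xlr3c together held 0.194, 0.296 and 0.307 CPM in APP/PS1 and 1.42, 2.11 and 1.28 CPM in WT, so the groups stayed apart in the sum. Sept6, an X-linked septin chosen after its values were seen, stood at 44, 43.9 and 59.2 CPM in APP/PS1 and 62, 62.3 and 67.8 CPM in WT.

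Around Dag1, in a window of 10 Mb to each side that was chosen after the values were seen, 225 genes were tested and 10 of them (4.44%) had an unadjusted p under 0.05 in both comparisons, 4 higher and 6 lower. On the rest of chromosome 9 it was 15 of 775 (1.94%). The 10 window genes include Dag1, around which the window was drawn, and the overlapping genes Arpp21 and 2310075C17Rik. The shares are therefore not like for like, and no test of their difference was made. Among the 10, beside Dag1, were Tmem108, 4932413F04Rik, Rpl29, Manf, Arpp21, 2310075C17Rik, Susd5 and Rps27rt. Rps27rt shares reads with Rps27 and cannot be counted with certainty, as the sum of both copies above shows. Tmem108, a dendritic membrane protein of granule cells, starts 4.72 Mb before Dag1 and stood at 39.7, 41 and 46 CPM in APP/PS1 and 36.7, 33.4 and 35.8 CPM in WT. Susd5 starts 5.85 Mb after Dag1 and stood at 3.16, 3.9 and 3.18 CPM in APP/PS1 and 4.34, 4.79 and 5.25 CPM in WT. Dag1 itself was the 1 gene of the window past the adjusted threshold, and no gene within 1 Mb of it shared its direction with an unadjusted p under 0.05 in both comparisons.

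**Figure D5:**
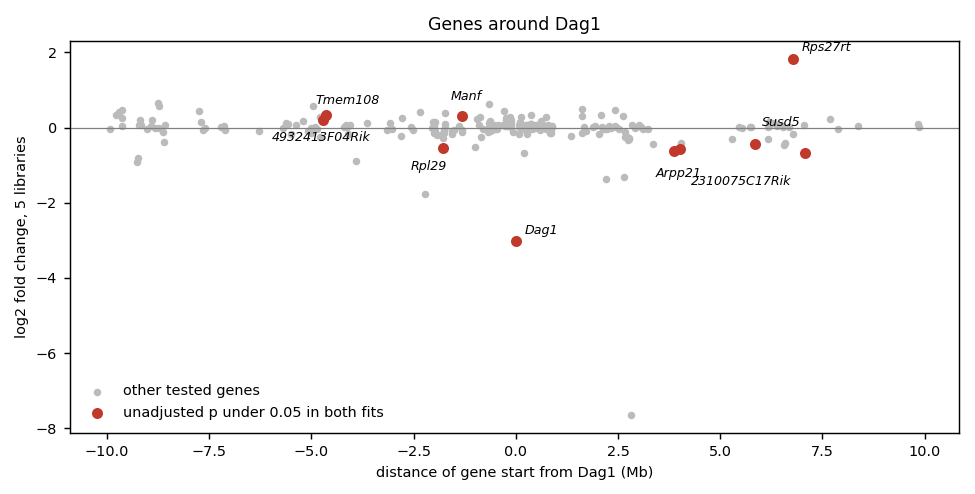
Log2 fold change without APP/PS1 replicate 3 of the tested genes within 10 Mb of Dag1, against the distance of their start from that of Dag1, with genes at an unadjusted p under 0.05 in both comparisons in red. Dag1 lies at -3.02, and the lowest grey point is Ltf, which stood under 0.6 CPM in every library and was listed at 0 in 3 of them, so that its fold depends on the prior count.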

How the data were processed

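Total RNA of 6 hippocampi (3 APP/PS1, 3 WT) was analysed from a table of whole-number estimated counts per gene symbol that the authors deposited. HISAT2, StringTie, DESeq and the genome build mm10 are named, without versions or roles, per the submitters' processing notes; the sources used here name no counter, annotation or strand setting. Among small values an estimated count of 4 was found 1817 times, against 897 for 3 and 1346 for 5, so counts may exceed the number of fragments, and dividing them by 4 was an alternative. Symbols were matched to RefSeq GRCm38.p6 by name or synonym for 24640 of 24736 (99.6%).

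Differences were tested with edgeR 4.0.16 in R 4.3.3 (TMM size factors, filterByExpr, quasi-likelihood test, Benjamini-Hochberg adjusted p under 0.05), with 6 libraries and again without APP/PS1 replicate 3. A standard error is the size of the log2 fold change over the square root of F. CPM were computed with the TMM sizes of the 6 libraries. P-values judge the genotype difference against the spread between these samples, and the estimate of that spread draws on all genes. The test was tried on simulated data: with 6 libraries 53 of 100 genes changed 2-fold and 94 of 100 changed 4-fold were recovered, and with 5 libraries 76 and 98, while 15 and 19 unchanged genes were called, more than the nominal share. Alternatives were DESeq2 1.42.0, limma 3.58.1 (voom), other size factors and filters, a replicate block, and leaving out each library.

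Named genes were App and Prnp, the genes past the threshold, the 15 per direction with the smallest larger p of both comparisons among genes without overlap and with a mean count of at least 100, and up to 4 members per list by the same p. Abundant or well-known list members named beside them were chosen after their values were seen. The 51 lists and the members were chosen with earlier results of these data known, and a few genes within that rule or those lists are left out of the text.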

Additional observations from a re-analysis of the deposited data

How the results depend on the processing

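By edgeR 1 gene passed with 6 libraries and 5 passed with 5. With DESeq2 the count was 24 (11 higher, 13 lower) and 63 (26 higher, 37 lower). With the replicate block it was 2 and 1. Whether the numbers shared by both genotypes, 1 and 2, pair the libraries was not settled. The correlation of deviations from the group means over 15030 genes was 0.182 for number 1 and -0.056 for number 2. For pairs of unlike numbers it ran from -0.115 to 0.107. Under the block, a number held by only 1 genotype carries no information on the genotype difference. Both block fits therefore estimate this difference from the libraries numbered 1 and 2 alone, and they are not separate results. The log2 fold change of Dag1 was -3.085 in the 6-library fit and -3.089 in the 5-library fit. Its adjusted p in edgeR's test was 0.0484 and 0.051. Leaving out 1 library at a time gave 0 to 6 genes with 6 libraries. With 5 libraries, leaving out 1 WT library gave 0 to 2. Leaving out an APP/PS1 library there leaves 1 transgenic library, so no count is given. The counts of 0 came without WT replicate 1 (371 and 676 genes at an unadjusted p under 0.05) and without WT replicate 2 (345 and 484), the 6 and the 38 without APP/PS1 replicate 1. Without WT replicate 4 the counts were 4 and 2. Other size factors, filters, limma-voom and division by 4 left the counts at 1 and 5. App, Prnp, Gabra3 and Fgf12 kept their direction in all alternatives. With 5 libraries their calls were lost under the block and without each WT library. Of 1376 alternative list medians 79 moved by more than the spread between libraries. The cause of these changes was not tested.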
